A study of Mus musculus with 3 samples.

Results

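The subject is a list of 36 genes whose products copy DNA or prepare cells for S phase. They were found by their symbols among the 32285 genes of the count tables, and all 36 were present. Single-cell RNA sequencing (10x Genomics 3' chemistry, in which unique molecular identifiers, UMIs, mark distinct mRNA molecules) was carried out on bone marrow cells of mice of 3 genotypes, with 1 library for each. The Lztr1 knockout library came from Lztr1fl/fl;Mx1Cre+ mice, the Rit1-M90I library from Rit1M90I/+;Mx1Cre+ mice, and the Cre-negative control library from Rit1M90I/+Mx1Cre- mice, which carry the Rit1-M90I allele without the recombinase and whose title also calls them wild type. Mice of every group were 8 weeks old when they received 3 injections of pIpC at 12 mg/kg, on alternate days, an RNA mimic whose interferon response turns on Mx1-Cre. Marrow was taken 4 weeks later and live cells free of the lineage markers CD3, CD11b, Gr1, B220 and Ter119 were collected, a step that enriches stem and progenitor cells. Mx1-Cre acts in many cell types besides blood cells, and both mutant groups carry it while the control group does not. The labels do not say whether a library came from 1 animal or from pooled animals.

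Before S phase, the MCM2-7 helicase is loaded on origins by Cdc6 and Cdt1, a step that geminin (Gmnn) blocks once replication has begun. Cyclin E with its kinase, Cdc45 and the GINS complex then start the forks, where polymerases, the sliding clamp PCNA and its loaders, flap and nick processing enzymes and a supply of deoxynucleotides carry synthesis on. Transcription of most of these genes is switched on by E2F factors at the G1 to S transition, and long-term blood stem cells of adult marrow are known for being mostly out of cycle while committed progenitors divide often.

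Because E2F control is a textbook feature of this list, the start-site regions of its genes are shown first. RefSeq windows of 300 bases, 250 before and 50 after a gene's start (GRCm38.p6), were available for 27 of the 36 genes, and were searched for the E2F words TTTCCCGC, TTTCGCGC, TTTGCCGC and TTTGGCGC on both strands. At least 1 word was present in 13 of the 27 genes, or 48.1%, against 704 of 27025 genes with a window, or 2.60%. In a second list of 43 other replication genes the words were present in 12 of 37 matched genes, and in a list of 22 genes of G2 and mitosis in 1 of 18. The 5 windows below are those of a helicase pair with 2 words each, of a licensing factor, and of Pclaf and Rrm2, which were among the most reduced in stem-like cells, with a word and without one. Each is written 5' to 3' on the gene's strand, with E2F words in capitals.

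Mcm3, chr1:20820263-20820562, minus strand: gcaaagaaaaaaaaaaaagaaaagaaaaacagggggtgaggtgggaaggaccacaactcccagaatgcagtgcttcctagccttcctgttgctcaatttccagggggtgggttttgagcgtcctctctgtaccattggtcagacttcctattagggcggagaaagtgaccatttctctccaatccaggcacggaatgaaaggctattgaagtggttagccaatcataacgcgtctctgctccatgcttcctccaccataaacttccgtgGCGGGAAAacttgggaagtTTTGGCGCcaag

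Mcm7, chr5:138171834-138172133, minus strand: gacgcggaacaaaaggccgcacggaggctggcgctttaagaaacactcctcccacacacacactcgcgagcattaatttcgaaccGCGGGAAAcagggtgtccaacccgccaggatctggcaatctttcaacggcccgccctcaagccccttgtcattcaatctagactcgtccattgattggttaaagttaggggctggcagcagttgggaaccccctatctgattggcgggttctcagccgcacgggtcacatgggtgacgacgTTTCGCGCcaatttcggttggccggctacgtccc

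Cdc6, chr11:98907901-98908200, plus strand: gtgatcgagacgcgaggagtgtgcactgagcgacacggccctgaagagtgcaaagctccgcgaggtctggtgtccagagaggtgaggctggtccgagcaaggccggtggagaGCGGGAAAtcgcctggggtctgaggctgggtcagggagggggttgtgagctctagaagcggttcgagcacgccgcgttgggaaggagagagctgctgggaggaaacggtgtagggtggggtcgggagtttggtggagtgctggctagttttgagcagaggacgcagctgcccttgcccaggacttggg

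Pclaf, chr9:65890073-65890372, plus strand: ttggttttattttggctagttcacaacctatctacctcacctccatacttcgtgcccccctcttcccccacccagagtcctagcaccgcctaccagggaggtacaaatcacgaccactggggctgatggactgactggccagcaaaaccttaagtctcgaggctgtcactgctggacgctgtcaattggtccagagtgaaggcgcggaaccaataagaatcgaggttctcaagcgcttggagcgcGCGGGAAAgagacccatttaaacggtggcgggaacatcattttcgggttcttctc

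Rrm2, chr12:24708004-24708303, plus strand: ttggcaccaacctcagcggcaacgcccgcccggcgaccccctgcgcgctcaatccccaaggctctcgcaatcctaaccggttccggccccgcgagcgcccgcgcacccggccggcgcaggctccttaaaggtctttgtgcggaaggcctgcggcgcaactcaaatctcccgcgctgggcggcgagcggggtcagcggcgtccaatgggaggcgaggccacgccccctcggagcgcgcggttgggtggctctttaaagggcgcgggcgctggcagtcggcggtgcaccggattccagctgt

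Positions are counted from the RefSeq start that each window was built on. In the Mcm3 window the first word starts 19 bases after that start and the second 38 bases after it. The Pclaf word begins 5 bases before its RefSeq start and the Cdc6 word 138 bases before its own. Mcm7 holds 1 word 165 bases upstream of the start used and another 16 bases downstream, while Rrm2 held none in its window. In the GENCODE annotation Cdc6, Pclaf and Mcm7 begin farther upstream, so these words lie within the gene bounds there. RefSeq lists a second start of Mcm7, whose window (chr5:138171217-138171516) held 0 words. The other genes with a word were Cdt1, Clspn, Dtl, Hells, Lig1, Mcm5, Mcm6, Pola1 and Pold3, and in Mcm5 and in Mcm6 a pair of words overlap. A match of letters does not show that a factor binds there.

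The deposited tables held 30398349 UMIs in 3014 barcodes for the Lztr1 knockout, 88560148 in 11573 for Rit1-M90I and 67541728 in 8476 for the control. After filters and removal of called doublets, 2339, 9395 and 7281 cells remained in that order of libraries, with median depths of 9922, 6604 and 6863 UMIs. Between 5 and 19 barcodes were shared by any pair of libraries. Lztr1 itself was measured at 6.30 CPM (UMIs scaled to a common library total, 95% Poisson interval 5.40 to 7.31) over all kept cells of the Lztr1 knockout, 15.2 CPM in Rit1-M90I and 17.2 CPM in the control. In the stem-like cells Lztr1 had 6 UMIs in the Lztr1 knockout library, or 14.1 CPM (5.19 to 30.8), 10 UMIs or 10.8 CPM in Rit1-M90I, and 27 UMIs or 16.9 CPM (11.1 to 24.5) in the control, so loss of Lztr1 was not detectable at this depth in those cells. The 3' tags that were counted may lie outside the deleted part of the gene.

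Cells were assigned to populations by markers, and a population is therefore a range of cells that resemble the named type. The stem-like gate took 51 cells of the Lztr1 knockout, 177 of Rit1-M90I and 259 of the control, which is 2.18%, 1.88% and 3.56% of the kept cells. Of its 16 markers 12 were at least 2-fold higher than in other cells at 20 CPM or more, and Hlf, Meis1, Mecom and Angpt1, genes of blood stem cells, were among its 10 leading genes. The gate was set on these same markers, so their higher levels follow from it and are no check of identity. Of the 487 cells, 73 lay near the edge of the gate. Stem markers summed to 1714 CPM in the Lztr1 knockout, where Fgd5 and Hoxb5 were at 0, 2075 CPM in Rit1-M90I and 1906 CPM in the control. Of the 18 other marker classes, early neutrophil markers were the most abundant and summed to 1582 CPM in Lztr1 knockout stem-like cells, 1126 in Rit1-M90I and 1663 in the control, with medians of 6, 5 and 5 UMIs a cell and Fcnb at 0 in every library. Basophil and mast cell markers summed to 266, 696 and 386 CPM in the same order, with medians of 1, 2 and 1 UMIs a cell. Plasmacytoid dendritic markers summed to 375, 384 and 362 CPM, with Klk1 at 0 in every library, and lymphoid progenitor markers to 271, 286 and 267 CPM, with Rag1 and Rag2 at 0 in every library. Erythroid progenitor markers summed to 184, 233 and 195 CPM. The part of these transcripts in the results below was not tested.

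The first question was how the list stands in stem-like cells against committed progenitors. In the 51 Lztr1 knockout stem-like cells the 36 genes summed to 3707 CPM (95% interval 3526 to 3895), and their median was 93.1 CPM with quartiles of 44.2 and 149 CPM. The sum was 2310 CPM (2213 to 2410) in Rit1-M90I and 2471 CPM (2395 to 2549) in the control, with medians of 55.1 and 55.9 CPM. Of the 6 populations taken as committed progenitors, those that held at least 50 cells in every library were erythroid progenitor-like, early neutrophil progenitor-like, monocyte lineage-like, lymphoid progenitor-like and basophil and mast cell-like. Monocyte lineage-like cells were highest among them, at 4781, 4206 and 4705 CPM in the Lztr1 knockout, Rit1-M90I and control libraries. Erythroid progenitor-like cells had 4116, 4092 and 4155 CPM, lymphoid progenitor-like cells 4130, 3022 and 3650 CPM, early neutrophil progenitor-like cells 3703, 3507 and 3256 CPM, and basophil and mast cell-like cells were lowest of the 5 at 2334, 2014 and 2264 CPM. The megakaryocyte lineage-like population was left out of the fit because it held 44 cells in the Lztr1 knockout. Innate lymphoid precursor-like, plasmacytoid dendritic-like and erythroblast-like cells also held at least 50 cells in every library, but were not among the populations taken as committed progenitors for the fit. Innate lymphoid precursor-like cells had 1479, 2038 and 1984 CPM, below the stem-like sum in every library. Erythroblast-like cells reached 8857, 8692 and 8588 CPM. T cell-like cells, which should hold few dividing cells, had 1258, 1196 and 1233 CPM, taken here as a background level. The stem-like sums thus lay above the T cell level in every library, and below the erythroid and monocyte levels in every library. In the Lztr1 knockout the stem-like sum and the early neutrophil sum had overlapping intervals. In bulk sums such as these, fewer cells with replication transcripts and less of them per cell cannot be told apart.

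**Figure D1:**
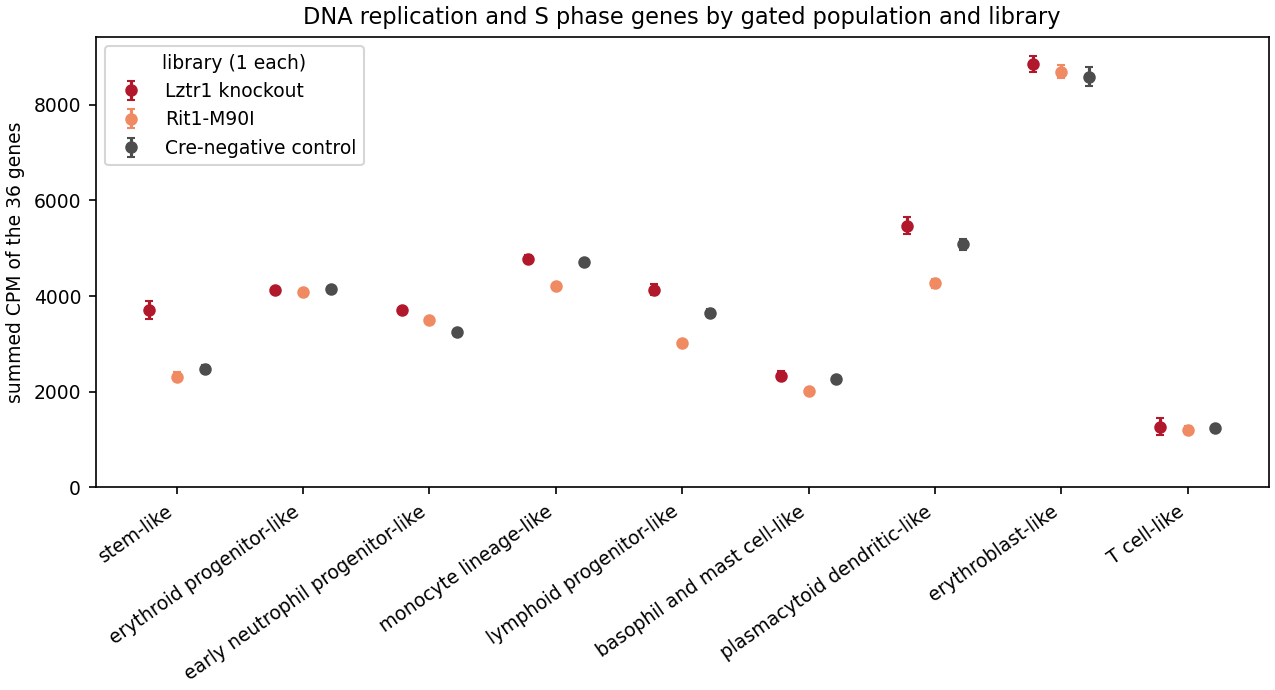
Summed CPM of the 36 DNA replication and S phase genes (y axis) in 9 gated populations (x axis), with 1 point for each library and bars for exact 95% Poisson intervals, which cover counting error only. Erythroblast-like cells stand highest at 8588 to 8857 CPM and T cell-like cells lowest of those plotted at 1196 to 1258 CPM, and the Lztr1 knockout point lies above the other 2 in stem-like cells at 3707 CPM.

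The comparison was tested on UMI counts summed per library and population, with the libraries as blocks, by edgeR's quasi-likelihood test with Benjamini-Hochberg adjustment over 11888 genes. Of the 36 genes 29 fell in stem-like cells against the mean of the 5 committed populations and 0 rose. Of all genes tested 20.6% fell and 23.1% rose. The median log2 ratio of the list was -0.56, with quartiles of -0.94 and -0.40, against 0.02 for all genes tested. At an adjusted p threshold of 0.05 the genes that did not pass were Dscc1, Exo1, Pola1, Rfc2, Ung, Dtl and Chaf1b. The scaling bears on the count. With plain library totals in place of TMM scaling, 18 genes fell and 2 rose, where 9.98% of all genes fell. The list's median was then -0.30 and that of all genes 0.28. The gap of 0.58 log2 units between these medians was the same on both scales. A change of scaling shifts all genes almost alike, so this gap could not have differed and is no check. When clusters replaced the gate, 11 genes fell and 4 rose, with a median of -0.086, where 16.3% of all genes fell and the median of all genes was 0.02. The stem-like cluster held 1153 cells in place of 487.

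The gap was not the same size in each library. On the log2 scale of CPM plus 10, without a fitted model, the list's median difference between stem-like cells and the committed populations was 0.10 in the Lztr1 knockout library, against 0.09 for all genes tested, and 17 of 36 genes were below 0. It was -0.42 in Rit1-M90I, against 0.12 for all genes, and -0.39 in the control, against 0.11 for all genes. In both of these libraries 32 of 36 genes were below 0. Of all genes tested 42.2%, 38.0% and 37.3% were below 0 in the Lztr1 knockout, Rit1-M90I and control libraries. With TMM scaling the medians were -0.10, -0.66 and -0.59, against -0.06, -0.04 and -0.03 for all genes. With 1 library per genotype this difference between libraries has no replicate check. Without the Lztr1 knockout library the fit called 31 genes lower, with a median of -0.80, and without Rit1-M90I or the control it called 27 or 23. The shares of all genes called lower in these fits were 21.9%, 16.0% and 13.8%.

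Among the roles whose genes all fell, the helicase had the ratios nearest to 0. All 6 genes of MCM2-7, the ring that unwinds DNA at the fork, fell, with log2 ratios between -0.55 and -0.32. All 3 genes of licensing fell, with Gmnn at -1.13, Cdc6, the loader of the helicase, at -0.83, and Cdt1, its partner, at -0.77. The pair of E-type cyclins fell, as did Cdc45, Gins2 and Mcm10, which act when an origin fires and had ratios between -1.05 and -0.58. Of the 9 genes of polymerases, the clamp and strand processing 6 fell, and of the 5 genes of nucleotide supply and uracil removal 4 fell. Hells, a chromatin remodeller, and Slbp, which binds histone mRNA, fell by 0.41 and 0.61, and Clspn, Tipin and Usp1 fell among the 5 genes of fork protection and repair.

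**Figure D2:**
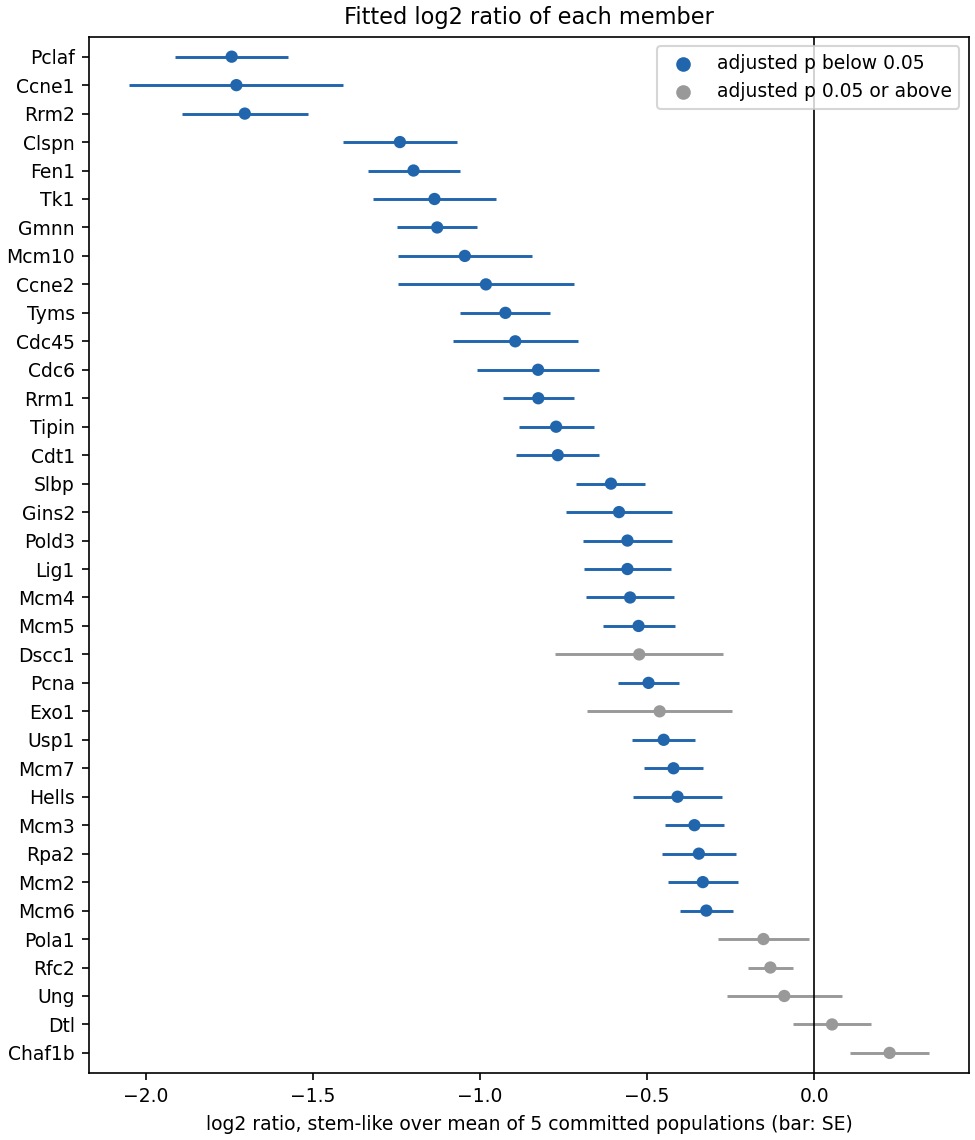
Fitted log2 ratio of each of the 36 genes in stem-like cells over the mean of 5 committed populations (x axis), with bars for the standard error of the fit and blue points for an adjusted p below 0.05. Pclaf, Ccne1 and Rrm2 stand farthest below 0 at -1.74, -1.73 and -1.70, and 7 grey points did not pass.

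Pclaf, which encodes a partner of PCNA, had 146 CPM in stem-like cells of the Lztr1 knockout, 77.8 CPM in those of Rit1-M90I and 52.5 CPM in those of the control. The means of the committed populations were 308, 232 and 251 CPM in the same libraries, above the stem-like value in each. The fitted log2 ratio was -1.74 ± 0.17 (SE, 3 libraries; edgeR adjusted p = 1.0e-10). Against single populations Pclaf was farthest down from monocyte lineage-like cells, at -3.01, and its committed values reached 620 CPM there in the Lztr1 knockout library.

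Rrm2, the small subunit of ribonucleotide reductase, which makes deoxynucleotides, had 51.9 CPM in Lztr1 knockout stem-like cells, 30.3 CPM in Rit1-M90I and 23.7 CPM in the control, against committed means of 86.6, 90.1 and 86.7 CPM. It fell by 1.70 ± 0.19 log2 units (edgeR adjusted p = 1.7e-09). Its large-subunit partner Rrm1 fell by 0.83.

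Ccne1, cyclin E1, was scarce in stem-like cells, at 7.07 CPM in the Lztr1 knockout, 5.40 CPM in Rit1-M90I and 7.50 CPM in the control, from 3, 5 and 12 UMIs. Committed means were 27.9, 27.1 and 29.3 CPM, and the fitted log2 ratio was -1.73 ± 0.32 (edgeR adjusted p = 2.9e-05). Its highest committed level was in erythroid progenitor-like cells, which held 84.0, 83.8 and 87.8 CPM in the 3 libraries. In the other 4 committed populations Ccne1 stayed between 6.09 and 24.3 CPM, and in each library the stem-like value lay below that of every committed population.

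The 3 genes with the smallest fitted ratios were Dtl, Ung and Rfc2. Dtl, which directs Cdt1 to degradation during replication, had 96.7, 60.5 and 78.1 CPM in stem-like cells of the Lztr1 knockout, Rit1-M90I and control libraries and 70.7, 64.0 and 69.5 CPM as committed means, for a log2 ratio of 0.05 ± 0.12 (edgeR adjusted p = 0.75). Ung, which removes uracil from DNA, had 63.7, 31.3 and 26.9 CPM in stem-like cells and 36.9, 34.1 and 36.9 CPM as committed means, for -0.09 ± 0.17 (edgeR adjusted p = 0.71). Its value in the Lztr1 knockout was above the committed mean and that in the control below it. Rfc2, a subunit of the clamp loader, had 186, 192 and 194 CPM in stem-like cells and 176, 181 and 195 CPM as committed means, for -0.13 ± 0.07 (edgeR adjusted p = 0.12).

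Which committed population was set against the stem-like cells mattered. Against erythroid progenitor-like cells 33 genes fell and 1 rose, where 31% of all genes tested fell and 34.7% rose, and the list's median was -0.92. Against monocyte lineage-like cells 34 fell and 0 rose (all genes, 25.7% and 25.6%; median of the list -0.97). Against early neutrophil progenitor-like cells 32 fell and 0 rose (27.9% and 29.4%; median -0.86). Against lymphoid progenitor-like cells 24 fell and 0 rose (13.6% and 11%; median -0.51). Against basophil and mast cell-like cells 6 fell and 13 rose (27.9% and 26.8%), with a median of 0.16. These counts were nearer to the shares of all genes than those of the other contrasts. Ung stood highest there at 1.81 and Rrm2 lowest at -1.10. With basophil and mast cell-like cells left out of the committed mean, a choice made after the data had been seen, 34 of the 36 genes fell and the median was -0.85, where 26.1% of all genes fell.

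Most genes of the list ranked the 9 populations with at least 50 cells in each library alike. A gene's level was rank-correlated with the median level of the other 35 over those 9 populations, with levels averaged over libraries on a log scale. This correlation was 0.90 or more for most genes and reached 1.0 for Mcm5. These populations share libraries and differ in depth, and the value is a description. Rfc2 stood apart at 0.17, with its highest level in basophil and mast cell-like cells, at 289, 317 and 326 CPM in the Lztr1 knockout, Rit1-M90I and control libraries. Ung, at 0.55, was lowest in that same population, at 14.4, 6.75 and 7.79 CPM. Pclaf was highest in plasmacytoid dendritic-like cells, at 710, 531 and 646 CPM. Nearest to the list as a whole after Mcm5 were Lig1, the ligase that seals nicks, and Usp1, a deubiquitinase that acts on PCNA, both at 0.98.

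Lists of related genes gave the setting. Of 43 other replication genes 31 fell in stem-like cells against the committed mean and 1, Mcm9, rose by 0.76, with a median of -0.56. Recql4, a helicase of origin firing, and Asf1b, a histone chaperone, were the lowest at -1.85 and -1.45, and Orc5, at 0.17, did not pass. Of 13 E2F and pocket protein genes 6 fell and 3 rose: E2f2 and E2f8 were lowest at -1.72 and -0.99, and Tfdp2, a partner of E2F factors, and E2f5 were highest at 0.70 and 1.04. Of all genes tested in the same contrast 20.6% fell and 23.1% rose, so 3 risers among 13 are no more than that share. Of 22 genes of G2 and mitosis 22 fell, with a median of -1.47, from -2.48 for Aurka and -2.28 for Ube2c to -1.11 for Kif23 and -1.09 for Cdc20. The ratios of the mitotic genes were thus farther from 0 than those of most replication genes, a difference that was not tested. Some of the genes named here were scarce in stem-like cells, so their ratios rest on few UMIs. Recql4 had 4.72 CPM there in the Lztr1 knockout, 1.08 in Rit1-M90I and 1.87 in the control. In the same order E2f2 had 4.72, 8.65 and 3.12 CPM, E2f5 4.72, 5.40 and 11.9 CPM, and Aurka 0, 7.57 and 6.87 CPM.

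The second question was how the genotypes differ. With 1 library each there is no test, and the intervals cover counting error only. Among the 33 genes at 20 CPM or more in stem-like cells of either library, 13 were at least 1.5-fold higher in the Lztr1 knockout than in the control and 0 were that much lower, on the CPM plus 10 scale. Of all 6832 genes measured in this way 5.08% were that much higher and 4.93% that much lower. The median log2 ratio was 0.53, against 0.03 for all genes. Above the control were 31 of the 33 genes, and 3637 of all 6832 genes measured. The sums of 3707 and 2471 CPM gave a ratio of 1.5 (95% interval 1.41 to 1.59). The count of 13 was 8 under a stricter gate and 6 under clusters, where the median log2 ratio was 0.38 and 0.33. The stricter gate held 33 Lztr1 knockout cells. The share of all genes that much higher was not computed in these settings, so the counts of 8 and 6 lack a background. With each cell thinned to 2000 UMIs, so that deep cells weigh no more than others, the mean was 5.78 UMIs of the list per cell in the Lztr1 knockout and 4.21 in the control, a ratio of 1.37.

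The Rit1-M90I library did not show this. Of 30 genes at 20 CPM or more 0 were 1.5-fold higher and 0 were 1.5-fold lower than in the control, where 2.11% and 1.58% of all genes measured were. The median log2 ratio was -0.12, against 0.00 for all genes, and the ratio of the sums, 2310 over 2471 CPM, was 0.93 (0.89 to 0.99). Under clusters the median reversed to 0.11. The difference between the ratios of these mutants was not tested, and both use the same control library.

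**Figure D3:**
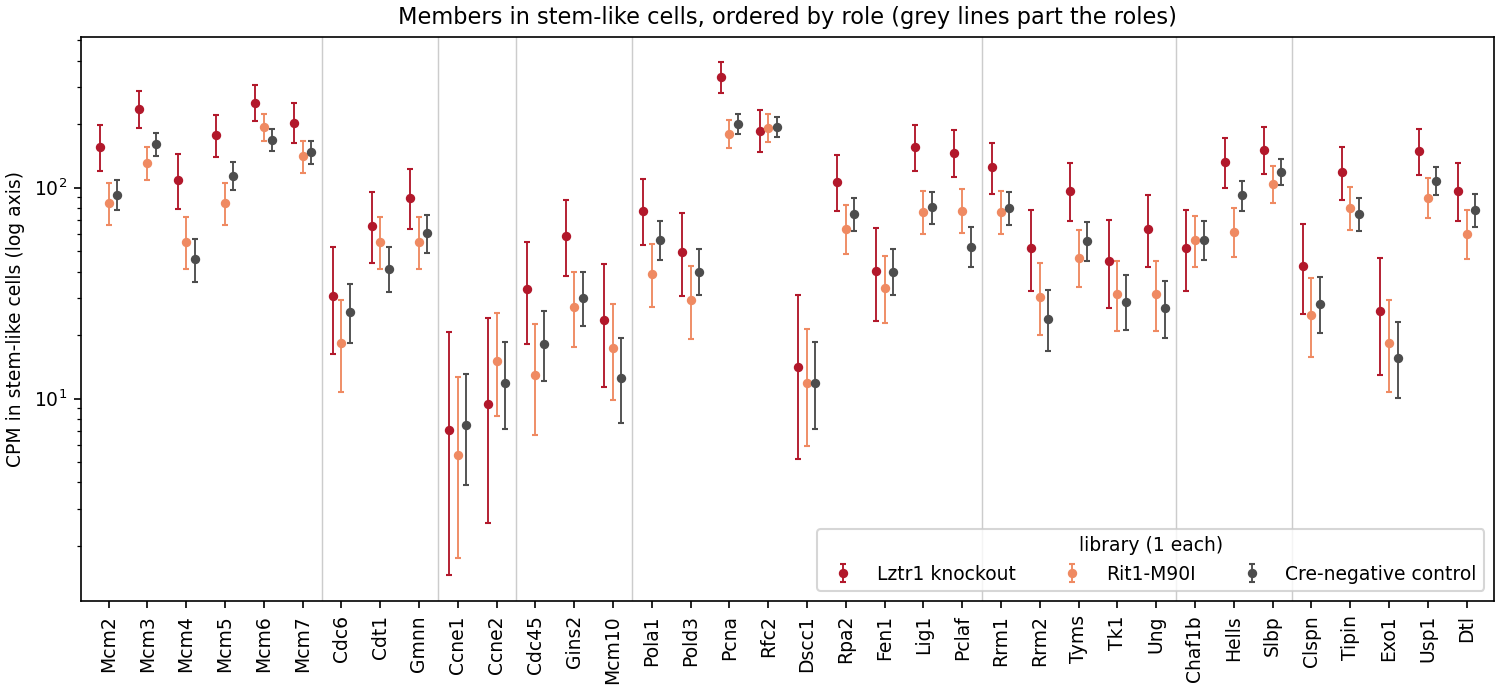
CPM of each of the 36 genes in stem-like cells (log y axis), ordered by role, with 1 point for each library and exact 95% Poisson intervals. Pcna stands at 332 CPM in the Lztr1 knockout, 179 in Rit1-M90I and 201 in the control, and the intervals are widest for Ccne1 and Ccne2, which rest on 3 to 19 UMIs.

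Pclaf had the highest ratio in both mutants. It had 146 CPM in Lztr1 knockout stem-like cells, from 62 UMIs, and 52.5 CPM in those of the control, from 84 UMIs, a ratio of 2.79 (1.97 to 3.91). Its 77.8 CPM in Rit1-M90I gave 1.48 (1.07 to 2.06). Mcm4, of the helicase, followed in the Lztr1 knockout with 108 CPM against 45.6 CPM in the control, a ratio of 2.38 (1.61 to 3.49). Ung followed with 63.7 CPM against 26.9 CPM, from 27 and 43 UMIs, a ratio of 2.37 (1.41 to 3.92). Under the stricter gate the log2 ratio of Ung reversed to -0.063. With stem-like cells thinned to the same depth, Pclaf was detected in 13.7% of the Lztr1 knockout cells and 5.84% of the control cells. Ung was detected in 9.80% and 3.89%. Mcm4 was detected in 5.88% and 8.56%, so its higher CPM did not come with a larger share of cells. The intervals treat UMIs of the same cell as independent, and do not cover differences between cells.

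At the other end in the Lztr1 knockout, among genes at 20 CPM or more in either library, were Chaf1b, a histone chaperone subunit, Rfc2 and Fen1, the flap endonuclease. Chaf1b had 51.9 CPM in the Lztr1 knockout, against 56.2 CPM in the control, a ratio of 0.92 (0.55 to 1.48). Rfc2 had 186 and 194 CPM, a ratio of 0.96 (0.74 to 1.23), and Fen1 had 40.1 and 40.0 CPM, a ratio of 1.0 (0.55 to 1.73). The intervals of 17 of the 36 genes lay above 1 in the Lztr1 knockout, those of 0 lay below it, and 19 spanned it. The share of all genes with an interval clear of 1 was not computed for either mutant, so such counts lack a background. The 17 held all 6 MCM2-7 genes, Pcna, Lig1, Gins2, Rrm1, Rrm2, Tyms, Ung, Tipin, Usp1, Hells and Pclaf. At equal depth Mcm4, Mcm6 and Rrm1 were detected in a smaller share of stem-like cells in the Lztr1 knockout than in the control. Mcm6 was detected in 25.5% and 26.1%, and Rrm1 in 9.80% and 10.9%. The rest of the 17 were detected in a larger share in the Lztr1 knockout.

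In Rit1-M90I the interval of Pclaf lay above 1 and those of Mcm5 and Hells below it. Under clusters the log2 ratios of Mcm5 and Hells reversed to 0.029 and 0.13. Among genes at 20 CPM or more in either library Cdt1 and Rrm2 were next after Pclaf, with 55.1 and 30.3 CPM in Rit1-M90I against 41.2 and 23.7 CPM in the control, and ratios of 1.34 (0.91 to 1.96) and 1.27 (0.75 to 2.13). Hells was lowest with 61.6 CPM in Rit1-M90I against 91.8 CPM in the control, a ratio of 0.67 (0.49 to 0.92). Pola1, the catalytic subunit of the priming polymerase, had 38.9 against 56.2 CPM, a ratio of 0.69 (0.46 to 1.03), and Mcm5 had 84.3 against 114 CPM, a ratio of 0.74 (0.56 to 0.97).

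By role, the sums in the Lztr1 knockout were highest against the control for the origin firing genes, at 116 and 60.6 CPM and a ratio of 1.91 (1.32 to 2.71), and for nucleotide supply and uracil removal, at 382 and 215 CPM and a ratio of 1.78 (1.47 to 2.15). MCM2-7 summed to 1132 CPM in the Lztr1 knockout, against 727 CPM in the control, a ratio of 1.56 (1.4 to 1.73). The pair of E-type cyclins had 7 and 31 UMIs and a ratio of 0.85 (0.32 to 1.97), so that neither direction can be read from them.

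The list's ratio over the control was nearer to 1 in the committed populations of the Lztr1 knockout. It was 1.14 (1.12 to 1.16) in early neutrophil progenitor-like cells, 1.13 (1.09 to 1.17) in lymphoid progenitor-like cells, 1.03 (0.99 to 1.08) in basophil and mast cell-like cells, 1.02 (0.997 to 1.04) in monocyte lineage-like cells and 0.991 (0.977 to 1.004) in erythroid progenitor-like cells. In Rit1-M90I it was above 1 in early neutrophil progenitor-like cells, at 1.08 (1.06 to 1.09), and below 1 in the others, from 0.985 (0.973 to 0.996) in erythroid progenitor-like cells to 0.83 (0.80 to 0.85) in lymphoid progenitor-like cells. In that last population the sum was 3022 CPM in Rit1-M90I and 3650 CPM in the control. In plasmacytoid dendritic-like cells the ratio was 1.08 (1.04 to 1.12) for the Lztr1 knockout, and Rit1-M90I had 0.84 (0.81 to 0.87).

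Genes of G2 and mitosis did not follow the replication genes in stem-like cells. Their sum was 726 CPM in the Lztr1 knockout, against 1030 CPM in the control, a ratio of 0.70 (0.62 to 0.80). In that library 8 of 17 genes measured were at least 1.5-fold lower, where 4.93% of all genes measured were. In Rit1-M90I the sum was 751 CPM, a ratio of 0.73 (0.67 to 0.80). There 4 of 18 were 1.5-fold lower, where 1.58% of all genes measured were. The mitotic part of this depended on how stem-like cells were chosen. When the stem-like population was taken from clusters in place of the gate, which gave 154, 407 and 584 cells at the depth used for the share of cells, the median log2 ratio of the G2 and mitosis genes in the Lztr1 knockout was 0.56, against -0.45 with the gate, while that of the replication genes was 0.33.

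**Figure D4:**
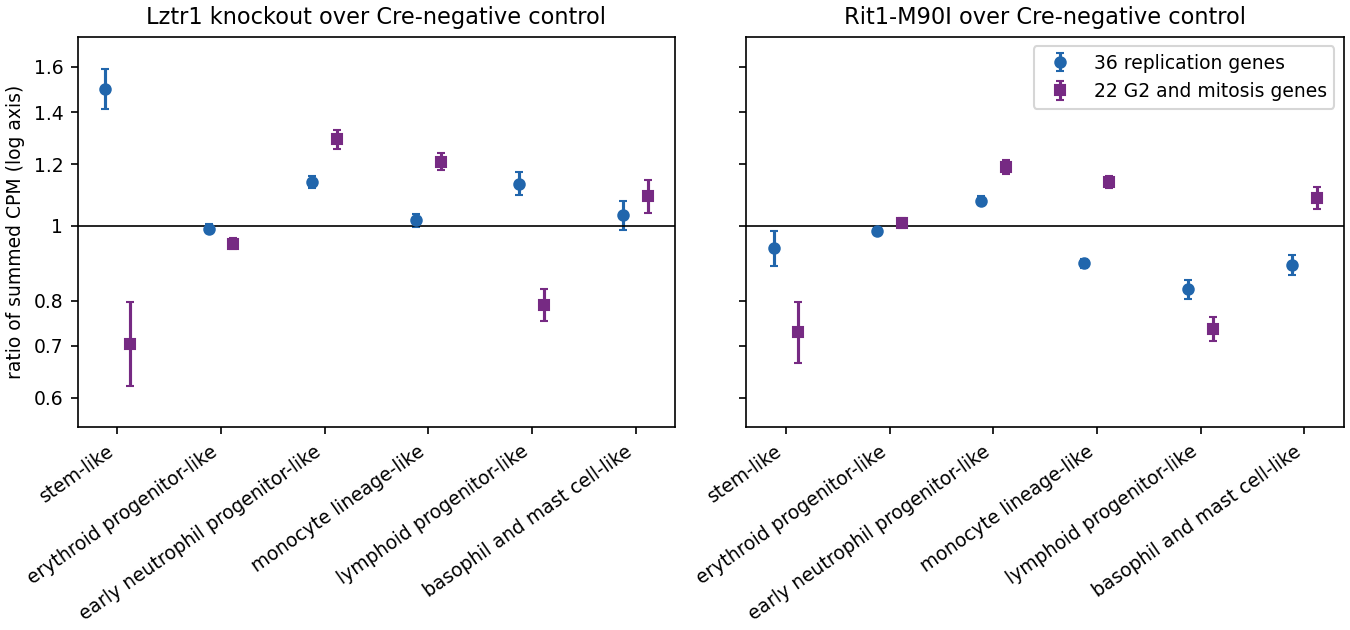
Ratio of summed CPM over the Cre-negative control (log y axis) of the 36 replication genes (circles) and 22 genes of G2 and mitosis (squares) in 6 gated populations, for the Lztr1 knockout (left) and Rit1-M90I (right), with exact conditional 95% intervals. The replication genes stand at 1.5 in Lztr1 knockout stem-like cells, where the mitotic genes stand at 0.70.

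Within the stem-like gate the list's transcripts were unevenly spread over cells. With every cell thinned to 2000 UMIs, cells with 7 or more UMIs of the list were called rich in replication transcripts, 7 being the lowest number that fewer than 3% of T cell-like cells reached (16 of 559, or 2.86%). In stem-like cells 20 of 51, or 39.2% (exact 95% interval 25.8 to 53.9%), were rich in the Lztr1 knockout, 32 of 175, or 18.3% (12.9 to 24.8%), in Rit1-M90I and 55 of 257, or 21.4% (16.5 to 26.9%), in the control. The intervals of the Lztr1 knockout and the control overlap. Without thinning, at the same share of a cell's UMIs, the values were 39.2%, 15.3% and 18.9%. The T cell-like shares were 0 of 35 in the Lztr1 knockout, which allows up to 8.57% when taken as 3 counts and up to 10.0% by the exact interval, 3.79% in Rit1-M90I and 2.56% in the control, where the median depths were 3004, 3079 and 2551 UMIs against 7114, 4783 and 5377 UMIs in stem-like cells. The quartiles of the list's UMIs in a stem-like cell were 1.5 and 9 UMIs for the Lztr1 knockout, 1 and 5 UMIs for Rit1-M90I and 2 and 6 UMIs for the control. Under clusters the rich shares were 55.2%, 37.8% and 32.9% in the same order.

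Rich cells were more frequent than in stem-like cells in 4 of the 5 committed populations of the fit, and less frequent among basophil and mast cell-like cells. They were 67.6%, 59.8% and 66.5% of monocyte lineage-like cells in the Lztr1 knockout, Rit1-M90I and control libraries, and 60.9%, 58.1% and 60.9% of erythroid progenitor-like cells. In early neutrophil progenitor-like cells they were 52.2%, 49.1% and 44.8%, and in lymphoid progenitor-like cells 44.2%, 29.9% and 42.2%. Basophil and mast cell-like cells had 17.7%, 15.1% and 18.8%, close to the stem-like shares of Rit1-M90I and the control, and innate lymphoid precursor-like cells had 5.19%, 10.8% and 11.6%. Among basophil and mast cell-like cells 35, 378 and 315 cells were under 2000 UMIs and left out.

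**Figure D5:**
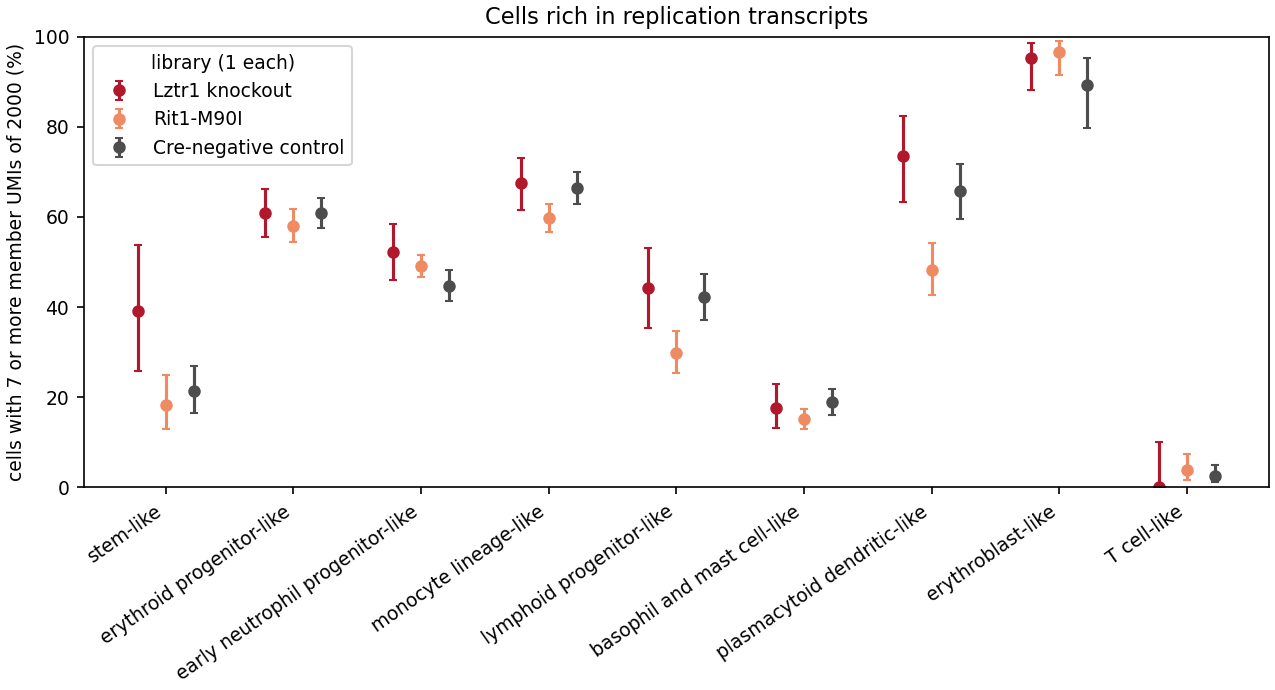
Percentage of cells with 7 or more UMIs of the 36 genes among 2000 drawn from each cell (y axis), in 9 gated populations (x axis), with 1 point for each library and exact 95% binomial intervals. Stem-like cells stand at 39.2% in the Lztr1 knockout, 18.3% in Rit1-M90I and 21.4% in the control, and T cell-like cells between 0 and 3.79%.

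A measure not used to call the rich cells moved with them. The 43 other replication genes had a mean of 7.35 UMIs in rich and 2.87 UMIs in the remaining stem-like cells of the Lztr1 knockout, 7.12 and 2.43 UMIs in those of Rit1-M90I, and 6.64 and 2.52 UMIs in those of the control. G2 and mitosis genes were at 1.90 and 0.65 UMIs in the Lztr1 knockout, 2.22 and 0.99 UMIs in Rit1-M90I, and 2.55 and 1.22 UMIs in the control. Stem-like cells with 3 or more UMIs of G2 and mitosis genes made up 13.7% in the Lztr1 knockout, 12.0% in Rit1-M90I and 13.6% in the control. Of the 20 rich stem-like cells of the Lztr1 knockout 15 were below that mitotic threshold, against 24 of 32 in Rit1-M90I and 36 of 55 in the control. From these counts alone no cell was called as cycling.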

How the data were processed

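Per library, the authors' tables hold whole-number UMI counts by gene and cell barcode with no normalization, as deposited. Cell Ranger 6.1.1, build mm10 and Seurat 4.1.0 are named in the submitters' processing notes, while the annotation release and cell calling were not given in the sources used here. Sort and 3' v3 chemistry come from the labels' protocols. Seurat's part in the deposited counts is not stated, and the counts were taken as they stand.

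Barcodes were kept at 1000 UMIs, 500 genes and at most 10% mitochondrial UMIs. Doublets were called per library with scrublet and removed (83 in the Lztr1 knockout, 422 in Rit1-M90I and 242 in the control, or 3.43%, 4.30% and 3.22%). Cells were gated by the mean z-score of 188 markers of 19 classes, with a score of at least 0.5 and a lead of 0.25 over the next class. That rule was set after the data were seen, and 4126 of 19015 cells stayed unassigned. The scores were computed with scanpy 1.11.5. The members and all lists were chosen with earlier results of these data known.

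UMIs were summed per library and population and divided by the total to give CPM. The 18 sums of 6 populations were fitted with edgeR 4.0.16 (TMM scaling, population plus library as a block, 10 residual degrees of freedom). The 3 libraries, which differ in genotype, stand as the replicates of a population contrast. The block removes differences between libraries that all populations share. The p-values therefore measure how far population differences vary from library to library, pooled over the 6 populations. Genotypes were compared by CPM ratios with exact conditional 95% intervals, and by log2 of CPM plus 10, over genes at 20 CPM or more, which understates the change of scarce genes. Depth differs between libraries, and fewer cells in the Lztr1 knockout widen its intervals. Full values were given for the 3 members with the largest and 3 with the smallest ratio in the fit and for the 3 highest and 3 lowest of each genotype ratio, and for other lists for the 2 highest and 2 lowest genes. Promoters are RefSeq windows on GRCm38.p6. Near-identical copies such as pseudogenes can take or add reads to any gene in such counts.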

Additional observations from a re-analysis of the deposited data

Results flagged for a closer look

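Summed levels of a list moved to opposite sides of the control in different populations of the same mutant library, with counting intervals that exclude 1. The differences between populations were not tested, and 1 library stands behind each value. For the 36 replication genes this was seen in Rit1-M90I, where the ratio over the control was 1.08 in early neutrophil progenitor-like cells and below 1 in stem-like (0.93), erythroid progenitor-like (0.98), monocyte lineage-like (0.89), lymphoid progenitor-like (0.83) and basophil and mast cell-like cells (0.89).

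For the 22 genes of G2 and mitosis in the Lztr1 knockout it was 1.29 in early neutrophil progenitor-like, 1.21 in monocyte lineage-like and 1.09 in basophil and mast cell-like cells, and below 1 in stem-like (0.70), erythroid progenitor-like (0.95) and lymphoid progenitor-like cells (0.79). In Rit1-M90I it was 1.19, 1.14 and 1.09 in the first 3 of these populations, and 0.73 in stem-like and 0.74 in lymphoid progenitor-like cells. The stem-like value of the Lztr1 knockout turned to the other side of the control when clusters replaced the gate.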

How the results depend on the processing

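Of the recomputed values of the main results 73 kept their direction and stayed within a wide tolerance, 13 moved and 1 reversed. For the fitted median the tolerance was 0.29 log2 units, the standard deviation of the per-library medians. Medians of -0.30 with library totals and -0.85 without basophils and mast cells thus counted as kept, against -0.56 in the main fit. Counts were kept within 1.5-fold, and counts of 0 that stayed 0 add to the 73. In stem-like cells against the committed mean, 29 members were lower under the fit without a replicate block (the block is the library), with DESeq2 size factors, the DESeq2 test, the stricter cell filter and doublets kept, and 30 to 32 without a filter on low genes and under the stricter gate. Leaving out 1 library gave 23 to 31 lower members, 0 higher members and medians between -0.80 and -0.51. Clusters gave 11 lower and 4 higher members and a median of -0.086, and library totals, added after the data were seen, 18 and 2. Clusters take in 1153 cells rather than 487. The share of all genes called lower was 9.98% with library totals and 20.6% with TMM.

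For the Lztr1 knockout over the control in stem-like cells, the median log2 ratio was 0.38 under the stricter gate with 8 members 1.5-fold higher, 0.33 under clusters with 6, and 0.62 with a pseudocount of 1 CPM. The share of all genes 1.5-fold higher was not computed in these settings. For Rit1-M90I clusters reversed it to 0.11. The rich share under clusters was 55.2%, 37.8% and 32.9% in the Lztr1 knockout, Rit1-M90I and the control. 

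Single values that reversed were Dtl at -0.10 without the Lztr1 knockout, -0.0017 without the low filter, -0.070 under the stricter gate, -0.37 without basophils and mast cells and -0.0083 under the stricter cell filter, Ung at 0.22 without the control (its range when 1 library was left out was -0.39 to 0.22), 0.53 under clusters and 0.17 with library totals, and Rfc2 at 0.12 with library totals and 0.0099 without basophils and mast cells. In stem-like cells G2 and mitosis genes reversed to 0.56 (Lztr1 knockout, clusters), Ung to -0.063 (Lztr1 knockout, stricter gate), and Hells and Mcm5 to 0.13 and 0.029 (Rit1-M90I, clusters), and the members in erythroid progenitor-like cells of Rit1-M90I to 0.0060 under the stricter cell filter. The cause was not tested. No paired analysis was possible between genotypes because each has 1 library. The 51 stem-like cells of the Lztr1 knockout limit every genotype value there.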
